A study of Mus musculus with 4 samples.

Results

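The 4 Hox clusters of the mouse were examined for the histone variant H2A.Z, which replaces canonical H2A in some nucleosomes, in embryonic fibroblasts with and without Anp32e. Members were the H2A.Z peaks of either genotype that overlapped a fixed mm9 window around a cluster by at least 1 bp. They numbered 70 of 37667 wild-type peaks and 57 of 41912 knockout peaks, 127 of 79579 in all. The windows were chr6:52090000-52230000 for HoxA, chr11:96040000-96240000 for HoxB, chr15:102740000-102880000 for HoxC and chr2:74490000-74610000 for HoxD, 600 kb together.

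Wild-type (Anp32e+/+) and knockout (Anp32e-/-) fibroblasts came from crosses of heterozygous mice on a C57BL/6 background. Each culture was grown from the torso of a single embryo at embryonic day 10.5, with the head and internal organs removed, and was between passages 5 and 10. There was 1 H2A.Z library per genotype and no replicate, so every value below describes these 2 libraries, no test between genotypes was possible, and differences between cultures and between genotypes cannot be told apart. The lists hold positions only: the depth is unknown, and neither the absence of Anp32e nor the fibroblast identity of the cells can be checked in them. The knockout list was the longer one over the whole genome, with 1.11 times as many peaks and 1.27 times as much covered sequence, and its median peak was 1881 bp wide against 1641 bp in the wild type.

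Hox genes encode homeodomain transcription factors that give cells their position along the body axis and along the limbs. Within a cluster the genes stand in the order in which they are used, from the head end to the tail end of the embryo, and fibroblasts in culture keep part of the pattern of the site they came from. Hox clusters are also classic targets of the Polycomb repressors, and H2A.Z has been found at many Polycomb-bound developmental promoters in embryonic stem cells. Anp32e is known as a chaperone that evicts H2A.Z from nucleosomes, so the comparison asks whether H2A.Z regions in these clusters are more or larger without it.

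All 38 listed genes were found in the RefSeq gene table of GRCm38. HoxA holds Hoxa2, Hoxa3, Hoxa4, Hoxa5, Hoxa6, Hoxa7, Hoxa9, Hoxa10, Hoxa11 and Hoxa13 in the order of rising coordinates. The other clusters run the opposite way. Genes are ordered by the lowest coordinate of their annotated span, and long transcripts of Hoxb3 and Hoxd3 that start before Hoxb4 and Hoxd4 put them ahead of these. HoxB holds Hoxb13, Hoxb9, Hoxb8, Hoxb7, Hoxb6, Hoxb5, Hoxb3, Hoxb4, Hoxb2 and Hoxb1, HoxC holds Hoxc13, Hoxc12, Hoxc11, Hoxc10, Hoxc9, Hoxc8, Hoxc6, Hoxc5 and Hoxc4, and HoxD holds Hoxd13, Hoxd12, Hoxd11, Hoxd10, Hoxd9, Hoxd8, Hoxd3, Hoxd4 and Hoxd1. The genes at the ends have well-known roles: Hoxa2 patterns the hindbrain and pharyngeal arches, Hoxb1 acts in the hindbrain, Hoxa13 and Hoxd13 shape the digits and the genital tubercle, Hoxb13 acts in the tail and the prostate, and Hoxc13 acts in hair and nails. The gene table is on another build than the peaks, so it was used for names and order, and no peak was assigned to a gene.

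The promoters of these genes differ widely in CpG content, a feature of many promoters that carry H2A.Z. RefSeq sequences of the 250 bases before the start site were at hand for 22 of the 38 genes. They held a median of 12 CG dinucleotides, from 2 in Hoxd11 to 35 in Hoxa13, compared with a median of 6 over 27025 genes. Of all promoters 91.7% hold at least 1 CG, 80.6% hold at least 2 and 2.82% hold at least 35. The promoters with the most and the fewest are shown 5′ to 3′ on the gene's own strand (GRCm38, chromosome 6, minus strand, and chromosome 2, plus strand), with every CG in capitals. They are the extremes of the 22, of which 9 belong to HoxA, 3 to HoxB, 1 to HoxC and 9 to HoxD. The peaks could not be placed on them.
Hoxa13: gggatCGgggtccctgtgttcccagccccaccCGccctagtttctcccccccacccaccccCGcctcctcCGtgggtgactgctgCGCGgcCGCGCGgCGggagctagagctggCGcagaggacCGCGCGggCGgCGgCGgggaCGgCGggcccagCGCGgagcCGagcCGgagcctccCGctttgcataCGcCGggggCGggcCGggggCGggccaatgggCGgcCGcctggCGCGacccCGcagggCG
Hoxd11: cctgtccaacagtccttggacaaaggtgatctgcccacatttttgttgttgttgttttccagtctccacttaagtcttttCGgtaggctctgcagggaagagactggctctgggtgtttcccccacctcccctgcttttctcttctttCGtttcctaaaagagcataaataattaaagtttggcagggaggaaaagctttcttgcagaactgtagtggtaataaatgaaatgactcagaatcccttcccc

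H2A.Z peaks were fewer and covered less sequence in the knockout library in all 4 clusters, the opposite of the list as a whole. Chromosomes 6 (HoxA) and 11 (HoxB) as a whole also had fewer knockout peaks and slightly less covered sequence. HoxA held 17 wild-type and 15 knockout peaks, HoxB 16 and 12, HoxC 18 and 17, and HoxD 19 and 13. The ratio of knockout to wild-type peaks was 0.882 in HoxA (1 without the outer 10 kb at each end of the window), 0.75 in HoxB, 0.944 in HoxC, 0.684 in HoxD and 0.814 over the 4 windows. Over whole chromosomes this ratio was 0.848 for HoxA, 0.893 for HoxB, 1.16 for HoxC and 1.07 for HoxD. HoxA thus lay above its chromosome and the other clusters below theirs. Among all windows of the same size, 14.5% (140 kb, the size of HoxA and HoxC), 16.5% (200 kb, HoxB) and 13.4% (120 kb, HoxD) held fewer knockout than wild-type peaks. On the cluster's own chromosome the share was 22.0% for HoxA, 38.3% for HoxB, 15.4% for HoxC and 16.2% for HoxD.

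Covered sequence separated the clusters more than peak numbers did. In HoxA, wild-type peaks covered 40.6 kb and knockout peaks 34.2 kb, a ratio of 0.842. In HoxB they covered 36.6 kb and 22.2 kb, a ratio of 0.605, the lowest of the 4. HoxC had 42.5 kb and 38.9 kb, a ratio of 0.913. HoxD had 37.0 kb and 26.3 kb, a ratio of 0.712. Together the clusters had 157 kb covered in the wild type, 26.1% of the windows, and 122 kb in the knockout, 20.3%, against 2.68% and 3.41% of the genome between the outermost peaks of each chromosome. Less covered sequence in the knockout was seen in 15.1% of all windows of 140 kb, 15.9% of those of 200 kb and 14.6% of those of 120 kb. Within the cluster's own chromosome it was 27.0% of windows for HoxA, 36.1% for HoxB, 12.0% for HoxC and 16.8% for HoxD.

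**Figure D1:**
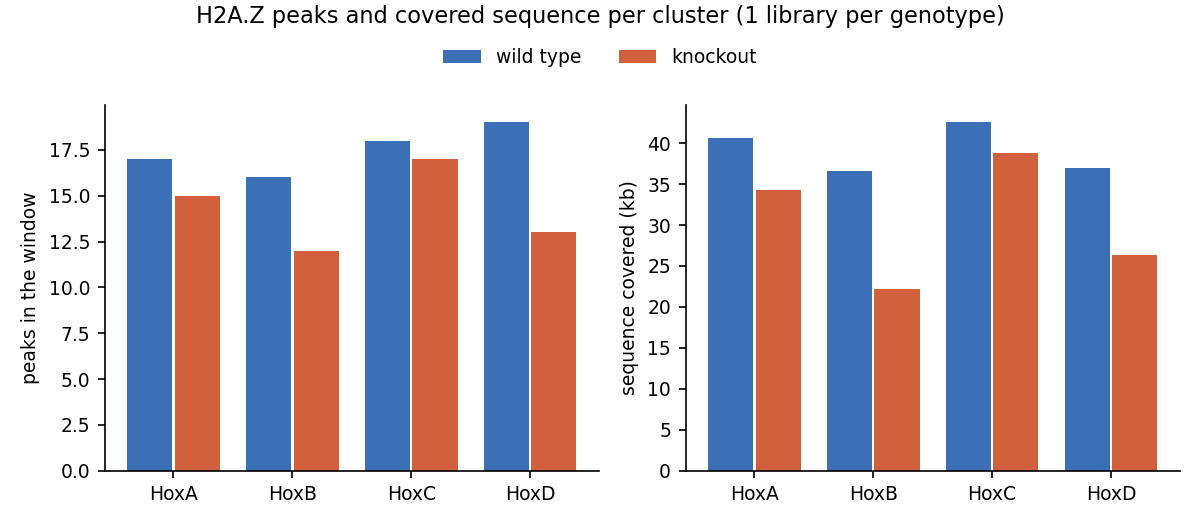
H2A.Z peaks (left panel, number) and sequence covered by peaks (right panel, kb) in each Hox window, with 1 bar per library and no error bar because each genotype has 1 library. The knockout bar is the lower one in all 4 clusters in both panels, most of all for covered sequence in HoxB (36.6 and 22.2 kb).

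The chromosomes of the clusters differed from one another in the ratio between the libraries, so each cluster was set beside its surroundings. The ratio of covered sequence was 0.962 on chromosome 6 (HoxA), 0.993 on chromosome 11 (HoxB), 1.44 on chromosome 15 (HoxC) and 1.22 on chromosome 2 (HoxD). In the 1 Mb on each side of the window, both sides pooled, it was 0.888 around HoxA, 0.926 around HoxB, 1.30 around HoxC and 1.13 around HoxD. Each cluster lay below its own chromosome and its pooled flanks, and HoxB, HoxC and HoxD also lay below each flank taken alone. HoxA did not: its flanks had ratios of 1.04 on the Hoxa2 side and 0.674 on the Hoxa13 side, and its own 0.842 lay between them. Around HoxC and HoxD the ratio was above 1 and inside them below 1. Peak numbers did not set every cluster below its flanks. The ratio of peak numbers in the flanks was 0.733 around HoxA, 0.803 around HoxB, 0.938 around HoxC and 0.882 around HoxD. By that measure HoxA, at 0.882, lay above its flanks, HoxC, at 0.944, lay next to them, and HoxB and HoxD lay below.

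**Figure D2:**
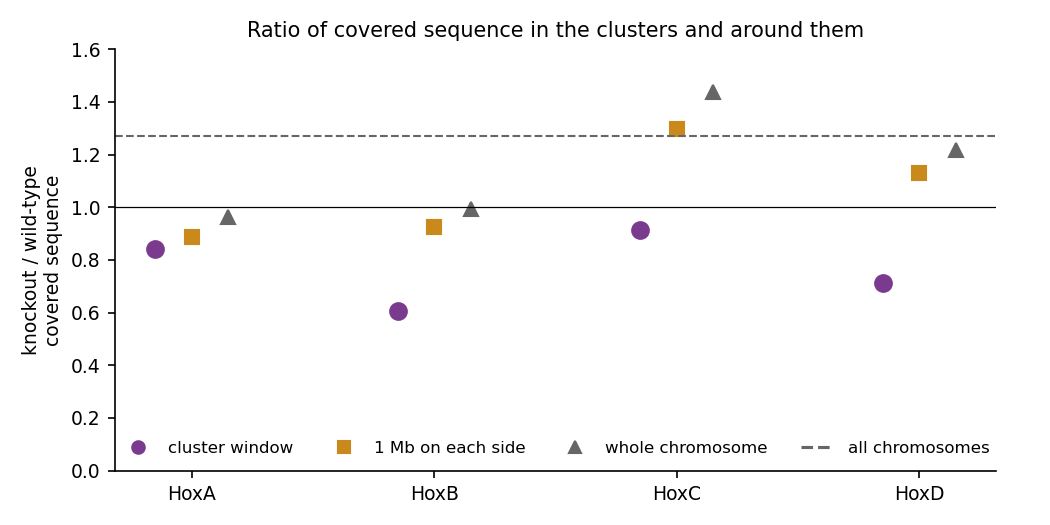
Ratio of knockout to wild-type covered sequence (vertical axis, from 0) in each Hox window (circles), in the 1 Mb on each side of it (squares) and on its whole chromosome (triangles), with the ratio over all chromosomes, 1.27, as a dashed line. The circles lie between 0.605 and 0.913, each below the square and the triangle of the same cluster.

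In the wild type the clusters were among the windows richest in H2A.Z, and less so in the knockout. For HoxD, 12 of 21377 windows of 120 kb held as many as its 19 wild-type peaks, and 227 held as many as its 13 knockout peaks. For HoxC, 53 of 18321 windows of 140 kb held 18 or more wild-type peaks and 85 held 17 or more knockout peaks. For HoxA the numbers were 70 and 164 of 18321. HoxB, the widest window and the most sparsely filled, was reached by 262 of 12817 windows of 200 kb in the wild type and by 859 in the knockout. It stood out less on its own chromosome, where 36 of 593 windows (6.07%) reached it in the wild type and 67 (11.3%) in the knockout. The own-chromosome numbers were 0 and 1 of 1044 for HoxA, 12 and 19 of 715 for HoxC, and 2 and 21 of 1488 for HoxD. The windows were tiled along each chromosome, so a few of them hold parts of the clusters themselves.

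The drop in covered sequence was in the far tail of all windows for HoxB and HoxD. In HoxB the knockout covered 14.5 kb less, and 4 of 12817 windows (0.0312%) dropped as far. In HoxD it covered 10.7 kb less, matched by 10 of 21377 windows (0.0468%). The 6.40 kb of HoxA were matched by 80 of 18321 windows (0.437%) and the 3.69 kb of HoxC by 256 (1.397%). On the clusters' own chromosomes no tiled window dropped as far as HoxB (593 windows) or HoxD (1488), 1 of 1044 did so for HoxA and 4 of 715 for HoxC.

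Most windows hold few peaks and cannot drop by as much, so windows as rich in peaks were set beside the clusters, a choice made after the data were seen. Of windows with at least as many peaks of both lists together, 8 of 83 dropped as far as HoxA, 3 of 414 as far as HoxB, 4 of 42 as far as HoxC and 1 of 32 as far as HoxD. The median of these rich windows was higher in the knockout by 8.05 kb for HoxA, 7.15 kb for HoxB, 10.6 kb for HoxC and 7.59 kb for HoxD. Less sequence was covered in the knockout in 17 of the 83, 89 of the 414, 7 of the 42 and 8 of the 32. Chromosome 11 differed from this: its 42 windows as rich as HoxB had a median of -1.41 kb, and 24 of them were less covered in the knockout, although none dropped as far as HoxB. The rich windows of chromosome 15 (10) and chromosome 2 (3) were all more covered in the knockout, and chromosome 6 had none as rich as HoxA.

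**Figure D3:**
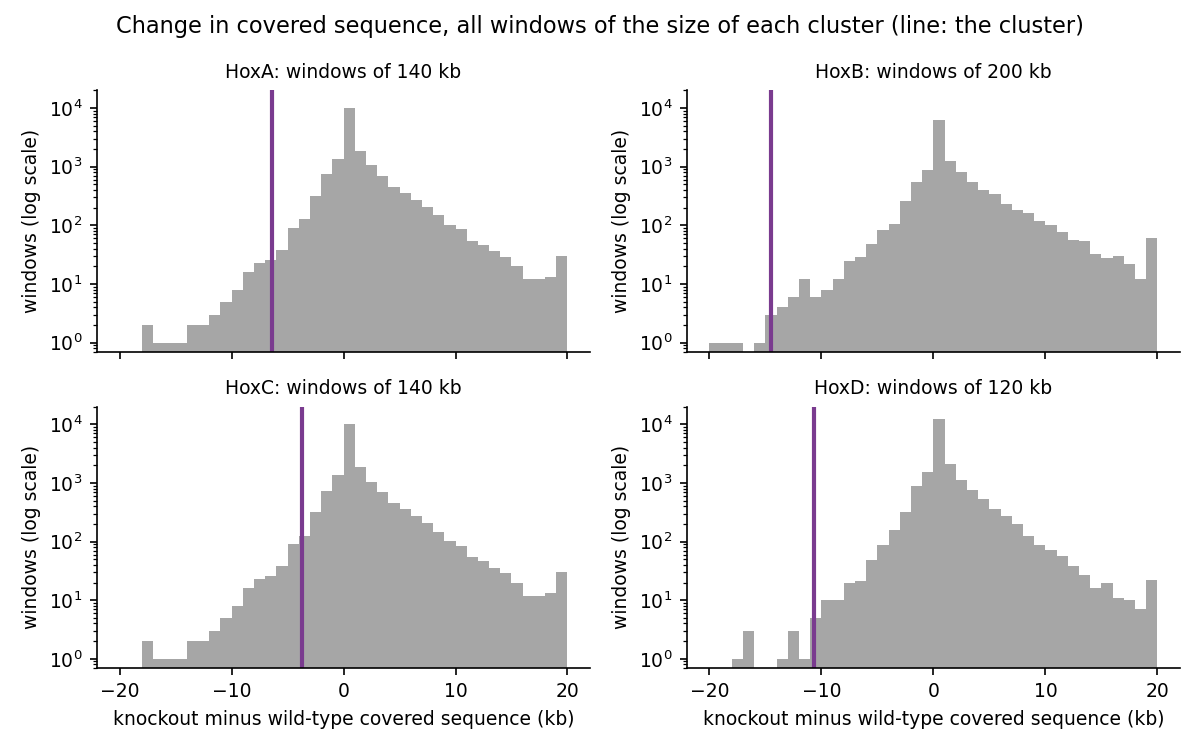
Number of windows (vertical axis, log scale) by knockout minus wild-type covered sequence (horizontal axis, kb, bins of 1 kb) for all windows of the size of each cluster, with the cluster as a vertical line; differences beyond the axis are put in the end bins and windows with no difference in the bin right of 0. The lines of HoxB and HoxD stand at -14.5 and -10.7 kb, where 4 and 10 windows lie as far down.

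Peaks found in a single genotype were mostly wild-type peaks in the clusters. Of the 70 wild-type peaks, 21 had no knockout peak, or 30.0% (exact Clopper-Pearson 95% interval 19.6 to 42.1%, counting error only), against 18.3% of all wild-type peaks. Of the 57 knockout peaks, 7 had no wild-type peak, or 12.3% (5.08 to 23.7%), against 28.1% of all knockout peaks. Per cluster, wild-type-only peaks numbered 3 of 17 in HoxA, 6 of 16 in HoxB, 3 of 18 in HoxC and 9 of 19 in HoxD. Over the whole chromosome, the share of wild-type peaks without a partner was 25.1% for chromosome 6 (HoxA), 22.5% for chromosome 11 (HoxB), 15.9% for chromosome 15 (HoxC) and 19.0% for chromosome 2 (HoxD). The shares of HoxB (37.5%, 15.2 to 64.6%) and HoxD (47.4%, 24.4 to 71.1%) were the high ones, the interval of HoxB including and that of HoxD lying above the share of its chromosome, while HoxA (17.6%) and HoxC (16.7%) lay near or below their chromosomes. By number, 4 of 21377 windows of 120 kb held 9 or more wild-type-only peaks, the number of HoxD. The 6 of HoxB were reached by 100 of 12817 windows of 200 kb, and the 3 of HoxA and of HoxC by 632 of 18321 windows of 140 kb. Most windows hold few peaks. Of windows as rich in peaks, a set chosen after the data were seen, 26 of 83 reached HoxA and 39 of 414 reached HoxB. For HoxC it was 11 of 42 and for HoxD 1 of 32.

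Knockout-only peaks numbered 1 in HoxA, 1 in HoxB, 2 in HoxC and 3 in HoxD. The share of knockout peaks without a partner over the whole chromosome was 12.4% for that of HoxA, 14.0% for that of HoxB, 30.8% for that of HoxC and 25.9% for that of HoxD. With so few peaks the intervals per cluster are wide, for HoxC 1.46 to 36.4% around 11.8%, and for HoxD 5.04 to 53.8% around 23.1%. These include the chromosome's share. They hold counting error only and take neighbouring peaks of 1 library as independent, so they cannot decide whether a single cluster differs from its chromosome.

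Most wild-type-only peaks of the clusters lay within a few kb of a knockout peak. Wild-type-only peaks of the clusters had a median width of 1409 bp, compared with 1131 bp over all 6892 such peaks, and the nearest knockout peak was a median of 2.86 kb away (0.337 to 19.3 kb). Of the 21, 15 lay within 5 kb of a knockout peak (71.4%), against 37.9% of all wild-type-only peaks. Neighbouring peaks lie closer in the clusters, with a median gap of 4.06 kb in the wild type against 16.7 kb over the genome, so short distances go with the crowding. The 7 knockout-only peaks were 1488 to 2032 bp wide and lay 2.35 to 9.68 kb from a wild-type peak, 3 of them within 5 kb (42.9%, against 32.4% of all knockout-only peaks).

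**Figure D4:**
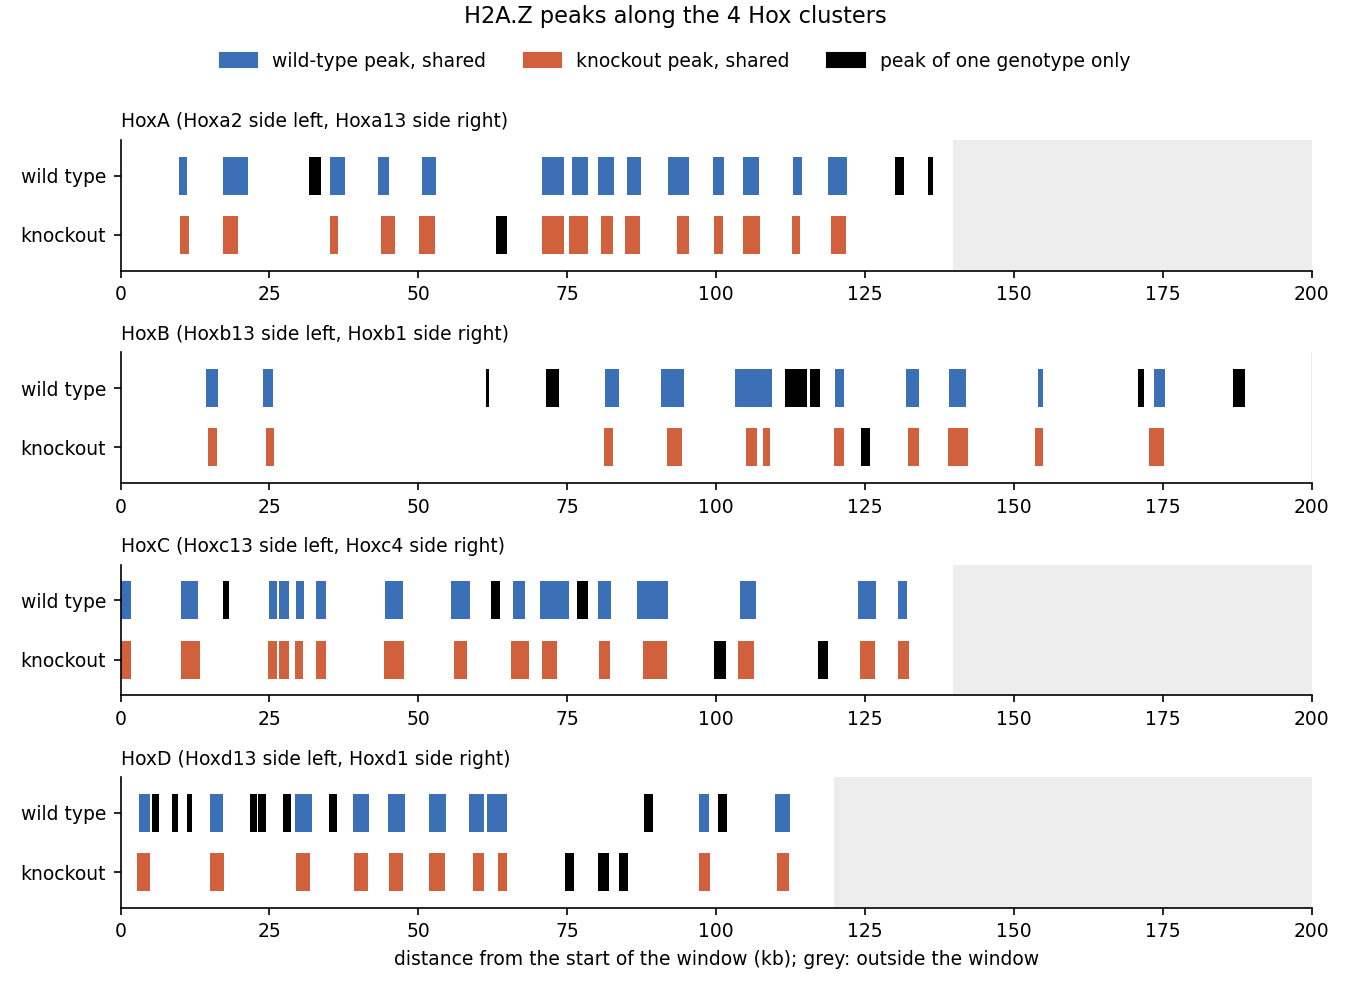
Position of every H2A.Z peak (boxes to scale) along the 4 Hox windows (horizontal axis, kb from the window's start), wild type above and knockout below, with peaks of a single genotype in black. HoxD has a run of black wild-type boxes on the Hoxd13 side and 3 black knockout boxes between 74.6 and 85.2 kb.

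HoxD had the largest share of wild-type-only peaks, and they gathered on the Hoxd13 side. In the 60 kb on that side the wild type had 14 peaks over 25.4 kb and the knockout 7 over 15.3 kb, a ratio of 0.602. In the other 60 kb the wild type had 6 peaks over 11.6 kb and the knockout 7 over 11.05 kb, with 1 peak of each genotype lying across the middle and counted on both sides. Of the 9 wild-type-only peaks, 7 lay on the Hoxd13 side: chr2:74495252-74496529, chr2:74498588-74499714, chr2:74501123-74502077, chr2:74511669-74512881, chr2:74513074-74514350, chr2:74517223-74518659 and chr2:74524990-74526306. These were 955 to 1437 bp wide, below the median of all wild-type peaks (1641 bp). They lay on both sides of the median of all wild-type-only peaks (1131 bp). They interleaved with shared peaks, so that in the 10 kb from 20 to 30 kb the wild type had 4565 bp covered and the knockout 578 bp.

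On the Hoxd1 side the picture was mixed. The other 2 wild-type-only peaks were chr2:74577883-74579356 and chr2:74590334-74591861, 1474 and 1528 bp wide. All 3 knockout-only peaks lay here, at chr2:74564595-74566167, chr2:74570217-74571970 and chr2:74573719-74575206, and were 1573, 1754 and 1488 bp wide. They fell into the longest peak-free stretch of the wild type, 23.0 kb (chr2:74554915-74577882). The longest stretch without a knockout peak was 12.1 kb, chr2:74507299-74519422, and held 3 wild-type-only peaks.

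HoxB had the largest drop in covered sequence, most of it at the widest H2A.Z peak of the clusters and the 2 wild-type-only peaks beside it. The widest peak of the wild type, chr11:96143220-96149344, was 6125 bp wide and ranked 64 of 37667 by width. In the knockout it was split into peaks of 1814 bp (chr11:96145024-96146837) and 1300 bp (chr11:96147794-96149093). Next to it stood the wild-type-only peaks chr11:96151640-96155323, 3684 bp wide and eighth by width among all 6892 wild-type-only peaks, and chr11:96155788-96157459, 1672 bp wide, with a gap of 464 bp between them. In the 10 kb from 110 to 120 kb of the window the wild type had 5356 bp covered and the knockout 131 bp, and in the 10 kb before it 6125 and 3114 bp.

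The remaining wild-type-only peaks of HoxB were scattered. chr11:96101282-96101929 was 648 bp wide and chr11:96111506-96113695 was 2190 bp wide. Both lay in the longest knockout gap of any cluster, 55.5 kb (chr11:96065760-96121209), where the wild type's longest gap was 35.6 kb (chr11:96065652-96101281). Toward the Hoxb1 end lay chr11:96210812-96211880, 1069 bp wide and 0.822 kb from a knockout peak, and chr11:96226790-96228787, 1998 bp wide. The single knockout-only peak was chr11:96164311-96165849, 1539 bp. The widest knockout peak of HoxB was chr11:96178897-96182248, 3352 bp, where the wild-type partner was 2887 bp wide.

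HoxA differed by 2 wild-type-only peaks at its Hoxa13 end and by the extent of its shared peaks, of which as many were wider as narrower in the knockout. Within shared peaks 7.33 kb was covered in the wild type alone and 3.29 kb in the knockout alone, and wild-type-only and knockout-only peaks covered 4.31 and 1.95 kb. The wild-type-only peaks chr6:52220093-52221501 (1409 bp) and chr6:52225511-52226461 (951 bp) were the last of the window, and the longest knockout gap, 18.2 kb, ran from chr6:52211802 to the window's end. The third was chr6:52121696-52123642, 1947 bp, lying 1.52 kb from a knockout peak. The knockout-only peak chr6:52153017-52154961, 1945 bp wide, lay in the longest wild-type gap of 17.9 kb (chr6:52142962-52160836). The widest wild-type peak, chr6:52107244-52111418, was 4175 bp wide and its knockout partner 2532 bp. The widest knockout peak, chr6:52160752-52164505, was 3754 bp with a wild-type partner of 3637 bp.

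HoxC came closest to equality, on a chromosome where the knockout covered more. Its wild-type-only peaks were chr15:102757259-102758284 (1026 bp), chr15:102802286-102803708 (1423 bp) and chr15:102816636-102818492 (1857 bp). Its knockout-only peaks were chr15:102839592-102841623 (2032 bp) and chr15:102857182-102858859 (1678 bp), the latter in the longest wild-type gap of 17.1 kb (chr15:102846732-102863877). The longest knockout gap was 11.5 kb (chr15:102753313-102764777). The widest peak of each list was the same site, chr15:102826750-102831870 with 5121 bp in the wild type and chr15:102827747-102831800 with 4054 bp in the knockout. In the 10 kb from 70 to 80 kb the wild type had 6667 bp covered and the knockout 2503 bp.

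Each window was also divided at its middle, a division chosen after the peaks had been seen. All 7 knockout-only peaks lay on the side away from the group-13 gene, with 29 knockout peaks counted on each side. They numbered 1 in HoxA, 1 in HoxB, 2 in HoxC and 3 in HoxD. The one in HoxA lay close to the middle, with its centre 76.0 kb from the group-13 end of the 140 kb window. Of the 21 wild-type-only peaks, 13 lay on the group-13 side, which held 42 wild-type peaks in all against 29 on the other. The 13 rest on HoxD, with 7 against 2; the other clusters together had 6 on each side, and HoxB had 2 against 4. The ratio of covered sequence was 0.822 on the Hoxa13 side and 0.880 on the other, 0.539 on the Hoxb13 side and 0.641 on the other, and 0.935 on the Hoxc13 side and 0.892 on the other. HoxD had the largest contrast, 0.602 against 0.951. Over 60 bins of 10 kb, 36 had less covered sequence in the knockout, 18 had more and 6 held no peak in either genotype. The 36 comprised 9 of 14 bins in HoxA, 11 of 20 in HoxB, 7 of 14 in HoxC and 9 of 12 in HoxD. Bins outside the clusters are not counted here, so these numbers describe the clusters alone.

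Shared peaks of the clusters were not, on balance, wider in the knockout. In the clusters 48 wild-type peaks overlapped exactly 1 knockout peak that overlapped no other. Their median width was 2475 bp in the wild type and 2194.5 bp in the knockout, and the median difference within pairs was -50.5 bp (exact binomial 95% interval of the median -469 to 106 bp, quartiles -553 and 192 bp). Over all 28979 pairs it was 215 bp. The knockout peak was the narrower one in 27 of the 48 pairs, or 56.2% (41.2 to 70.5%), against 20.2% of all pairs. Pairs in the 1 Mb flanks, 247 in all, were narrower in the knockout in 26.3% (20.9 to 32.3%) and had a median difference of 165 bp.

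By cluster, the knockout peak was narrower in 7 of 14 pairs in HoxA (32.6% of pairs on chromosome 6), 5 of 9 in HoxB (33.1% on chromosome 11), 8 of 15 in HoxC (13.7% on chromosome 15) and 7 of 10 in HoxD (19.6% on chromosome 2). The median differences were -13.5, -397, -27 and -360 bp, and the interval of each included 0. In 20 of the 48 pairs (41.7%) the knockout peak ended inside the wild-type peak on both sides, against 8.02% of all pairs and 9.31% in the flanks. It reached beyond the wild-type peak on both sides in 9 pairs (18.8%), against 59.6% of all pairs and 51.8% in the flanks. Hox peaks were wide to begin with: among the 6387 pairs with a wild-type peak of at least 2475 bp, the knockout peak was narrower in 30.5% and the median difference was 141 bp. In these 6387 pairs the knockout peak ended inside on both sides in 12.6% and reached beyond on both sides in 49.6%. The median wild-type width of these pairs was 2890 bp against 2475 bp in the 48 Hox pairs. The Hox pairs include narrower peaks, so the sets were not matched in width.

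The largest differences within pairs were at sites narrower in the knockout. The pair furthest down in HoxC went from 4810 bp (chr15:102810436-102815245) to 2503 bp (chr15:102810785-102813287), a difference of -2307 bp and also the lowest of the 1560 pairs on chromosome 15. In HoxD it went from 3337 bp (chr2:74551578-74554914) to 1434 bp (chr2:74553444-74554877), or -1903 bp, the lowest of the 2403 pairs on chromosome 2. In HoxA it was the widest wild-type peak named above, -1643 bp, and in HoxB chr11:96130676-96134541, 3866 bp in the wild type and 2595 bp in the knockout.

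Widening in the other direction was smaller. The furthest up was 988 bp in HoxC, from 2011 bp (chr15:102805925-102807935) to 2999 bp (chr15:102805614-102808612). It was 626 bp in HoxA at chr6:52133279-52135019, 557 bp in HoxB at chr11:96213454-96215430 and 372 bp in HoxD at chr2:74493091-74494915. Several sites hardly differed: chr6:52194482-52197277 in HoxA was 39 bp wider in the knockout and chr2:74505082-74507280 in HoxD 12 bp wider.

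**Figure D5:**
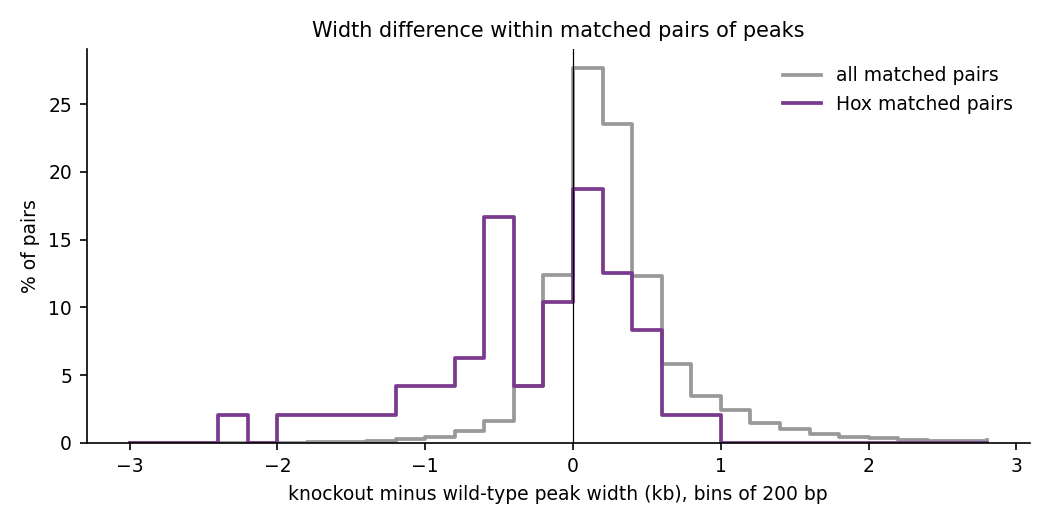
Percent of matched pairs (vertical axis) by knockout minus wild-type peak width (horizontal axis, kb, bins of 200 bp) for all 28979 pairs (grey) and the 48 Hox pairs (purple). The Hox pairs have a long tail on the negative side, down to -2307 bp, and none above 988 bp.

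No knockout peak in the clusters joined wild-type peaks. The count was 0 of 57, which allows a share of up to 5.26% (3 counts, counting error only) and so does not exclude the 1.92% seen over the whole knockout list, where a joined peak is one with 2 or more wild-type partners. In the opposite direction 1 of 70 wild-type peaks, the HoxB peak of 6125 bp, overlapped 2 knockout peaks, against 0.581% of all wild-type peaks.

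By bases, the wild type had 56.1 kb of covered sequence in the clusters that the knockout lacked. Of this, 31.5 kb lay in wild-type-only peaks and 24.6 kb within shared peaks. The knockout had 20.9 kb that the wild type lacked, 12.0 kb in knockout-only peaks and 8.88 kb within shared ones. Sequence covered in both was 101 kb, which is 64.2% of the wild-type and 82.8% of the knockout bases. In HoxB 50.1% of the wild-type bases were also covered in the knockout and in HoxD 56.7%, compared with 71.4% in HoxA and 76.0% in HoxC. Shares of bases over all peaks are not given here, so these values describe the clusters alone and do not set them apart.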

How the data were processed

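H2A.Z was mapped by chromatin immunoprecipitation and sequencing (single-end reads of 50 bases, per the labels' protocols). The authors deposited 1 peak list per H2A.Z library, with 3 columns (chromosome, start, end) and no height, p-value or count, saved from the Galaxy platform per the file headers. Per the submitters' processing notes the build was mm9, and MACS 1.4.2, HOMER, Bowtie 0.12.8 and CASAVA 1.8.2 are named; what each did, with which threshold and input, is not given in the sources used. The 2 input libraries were not analysed here. More depth or a looser threshold gives more and wider peaks.

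Peaks were compared in Python 3.11.15 (numpy 2.4.6, pandas 2.3.3, scipy 1.17.1, matplotlib 3.10.9); the code was tested on simulated data. Shared means at least 1 bp in common; matched pairs overlap 1 to 1. Starts were read as counting from 0 and are printed from 1. Windows of each cluster's size were tiled over 20 chromosomes between their outermost peaks. Every one-genotype, split, widest and most different peak and the longest gaps are named. The members and rules were chosen with earlier results of these data known. Alternatives for overlap, merging, window edges and tiling were tried.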

Additional observations from a re-analysis of the deposited data

How the results depend on the processing

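Of 139 alternative values, 109 stayed within the counting interval of the main value or, for counts, within 1.5 times, and 30 moved further. Counts of peaks and shares of windows have no direction that could turn. Among the values that have one, no ratio rose above 1 and the median width difference stayed negative. The ratios of peaks and bases were all below 1 in each cluster when peaks within 500 bp were merged, when peaks had to lie wholly inside, and when windows were 10 kb shorter or longer at each end, except that HoxA held equal peak numbers (a ratio of 1) in the shorter window, which leaves out its Hoxa13 end. With centres within 250 bp, wild-type-only and knockout-only peaks numbered 11 and 9 in HoxA, 11 and 7 in HoxB, 6 and 5 in HoxC, and 39 and 26 in all, with 5 knockout-only peaks in HoxD; this rule also parts overlapping peaks whose edges differ. With 50% of both peaks, HoxB had 3 knockout-only peaks and 0 wild-type peaks were split. A gap of up to 1 kb gave 7 fused knockout and 5 split wild-type peaks. The share of windows with as many wild-type peaks as HoxA was 0.295% with windows shifted by 0.5 of their length, and 0.196% for both HoxA and HoxC with merged peaks. Among windows with a peak, which are fewer, that share was 0.641%, 3.14%, 0.486% and 0.0986% for HoxA to HoxD, and 0.733% and 2.35% dropped as far in bases as HoxA and HoxC. Among windows with as many peaks of both lists, chosen after seeing the data, the shares were 71.1%, 61.6%, 78.6% and 31.2% for peak number, which that choice itself raises, and 9.64%, 0.725%, 9.52% and 3.12% for the drop in bases. Unless stated, the cause was not tested. No paired analysis was possible because there is a single library of each genotype. Unknown depth and the unknown threshold limit every comparison of peak numbers and widths, and no mm9 annotation was used to place peaks on genes.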
